A study of Bos taurus with 10 samples.

Results

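The genes described are the translation initiation factor genes of bovine embryos, taken as every gene whose symbol starts with EIF followed by a digit and stands on 1 line of the deposited table. The rule gave 52 genes of the 28700 symbols on 1 line, and 51 of them had a mean of at least 1 FPKM and were tested. FPKM divides fragments by transcript length and by library size, so it can be compared between genes and is relative to all other transcripts of the same library. The family covers the start codon and scanning factors, eIF2 with its exchange factor eIF2B, the kinases of eIF2, the eIF3 complex, the eIF4F helicase and scaffold, the cap-binding proteins, the binders of eIF4E, and 4 genes named as initiation factors whose main roles lie elsewhere. The carrier of methionyl initiator tRNA eIF2 is encoded by EIF2S1, EIF2S2 and EIF2S3.

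The embryos had received siRNA as zygotes, either targeting the oocyte linker histone gene H1FOO (KD, for knockdown) or a negative control sequence (NC). Messenger RNA with poly(A) tails was sequenced from 3 KD and 3 NC libraries of morulae at day 5.5 after insemination, and from 2 KD and 2 NC libraries of embryos at the 8/16-cell stage at day 4. All groups went through injection, and no uninjected embryos are part of the comparison. The labels give replicate numbers but do not say that replicates came from separate collections of embryos, so the p-values speak only of variation among the libraries sequenced.

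In early cleavage, the embryo depends on transcripts stored by the oocyte, and most of these are kept silent until their tails are extended or their repressors are lost. Translation starts when eIF4E binds the cap of an mRNA and eIF4G and eIF4A join it, while eIF2 brings the initiator tRNA and eIF3 holds the factors on the small ribosomal subunit. In frogs, eIF4E1B, an eIF4E form of the oocyte, sits with the eIF4E transporter (4E-T, from EIF4ENIF1) and CPEB1 in a complex that represses stored mRNAs. Phosphorylation of eIF2 by any of the EIF2AK kinases slows initiation at most mRNAs.

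H1FOO itself was at 0.0610, 0.191 and 0.251 FPKM in KD morulae and at 0.294, 1.05 and 2.17 FPKM in NC morulae. At the 8/16-cell stage it was at 0.649 and 0.0736 FPKM in KD embryos, against 50.8 and 10.8 FPKM in NC embryos. Of 10 embryo markers, 8 were above 1 FPKM in all 10 libraries, among them POU5F1, SOX2 and CDX2, while GATA3 was above it in 7 libraries and SOX17 in 8. Of 21 cumulus and granulosa markers, SERPINE2, COL1A1, STAR and DCN were above 1 FPKM in all 10 libraries, and AMHR2, FSHR and PTX3 were above it in none, with FSHR listed at 0. In KD 8/16-cell replicate 1 the microRNA genes MIR2887-1 and MIR2887-2 took so much of the sum that the EIF family made up 1.22% of it, against 1.67% with these left out. In KD 8/16-cell replicate 2 the share was 1.81%, against 1.97% with these left out. In the NC 8/16-cell libraries and all morula libraries the share was the same with and without them. Apart from KD 8/16-cell replicate 1, the family made up 1.69% to 2.02% of summed FPKM without them. The part of these microRNA genes in the results was not tested. Depth is unknown, because no counts were analysed here.

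Most EIF genes were abundant. Their mean over all libraries was at least 100 FPKM for 25 genes, between 10 and 100 FPKM for 20, between 1 and 10 FPKM for 6 and under 1 FPKM for 1. EIF5A, whose product carries the hypusine residue and acts mostly in elongation, led with a mean of 1570 FPKM, rank 16 of all genes, and ranged from 1027 to 1951 FPKM. EIF4A1, the main helicase of eIF4F, averaged 816 FPKM at rank 60. The scaffold gene EIF4G1 averaged 318 FPKM, EIF1AX, a scanning factor, 308 FPKM, and EIF4A2, the second eIF4A helicase, 252 FPKM. All 13 eIF3 subunit genes lay within a narrow band, with means of 83.0 FPKM for EIF3M up to 245 FPKM for EIF3K. EIF3CL is a near-identical copy of EIF3C, so reads of the pair may be split and its level is uncertain. The highest library was under 2 times the lowest for 29 genes, and over 3 times for 9.

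**Figure D1:**
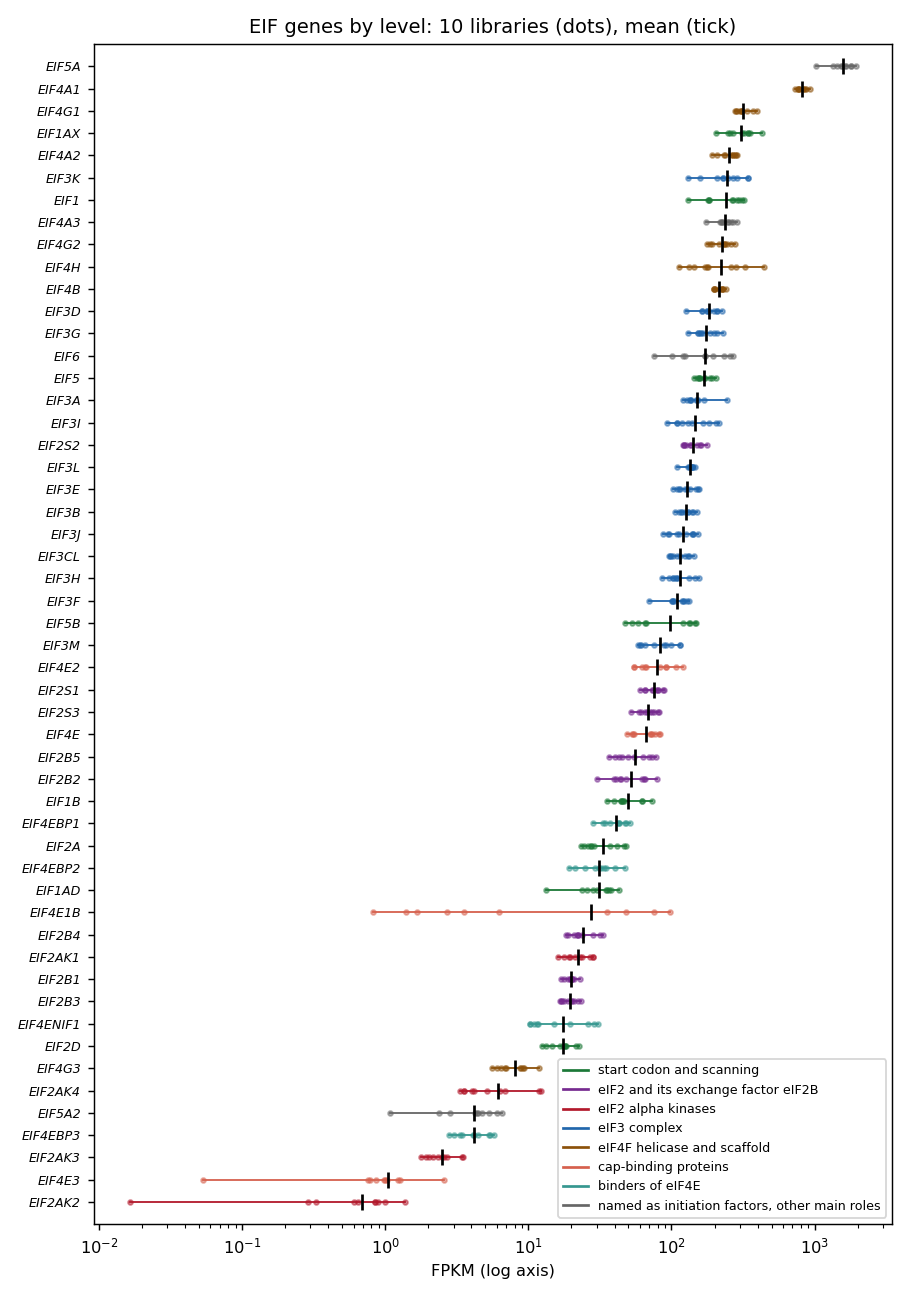
Mean FPKM of the 52 EIF genes over the 10 libraries on a log axis, in order of mean and coloured by role, with lines from the lowest to the highest library. Most lines are short, and EIF4E1B has one of the longest, between 0.827 and 97.6 FPKM.

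Paralogous genes differed in level. EIF4G2 encodes a scaffold that does not bind eIF4E and averaged 225 FPKM, while EIF4G3 averaged 8.00 FPKM. EIF1 averaged 242 FPKM and its copy EIF1B 50.0 FPKM. EIF5A2 averaged 4.19 FPKM, far under EIF5A.

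Among the genes that act at the cap, the oocyte form of eIF4E and the eIF4E transporter fell at the morula in both KD and NC embryos. EIF4E1B was at 2.71, 6.25 and 1.68 FPKM in KD morulae and at 1.40, 3.56 and 0.827 FPKM in NC morulae. The 8/16-cell embryos held 35.7 and 75.6 FPKM with KD and 97.6 and 47.7 FPKM with NC. Every morula library was below every 8/16-cell library, and morula replicate 2 was the highest of its group in both treatments. The fitted difference in log2(FPKM + 1), morula minus 8/16-cell, was -3.67 (SE 0.51) in KD embryos and -4.67 (SE 0.51) in NC embryos. The adjusted p of limma was 0.00206 in KD and 0.000384 in NC embryos, over all genes tested. On the FPKM scale, the mean of the morula group was 6.37% of the 8/16-cell mean in KD embryos and 2.65% of it in NC embryos. The difference passed in all 17 alternative analyses, where adjusted p reached at most 0.0303 in KD and 0.0105 in NC embryos.

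The oocyte transcripts moved the same way. Summed FPKM over the oocyte list was 30.3, 51.4 and 50.9 in KD morulae and 29.6, 32.7 and 38.1 in NC morulae, against 377 and 476 in KD 8/16-cell embryos and 726 and 426 in NC 8/16-cell embryos. Of the list's 17 tested genes, 15 fell in each stage comparison, where 14.8% of all genes tested fell in KD and 18.2% in NC embryos. Whether the fall of EIF4E1B is part of that of oocyte transcripts was not tested. In bulk libraries, fewer cells of a type and less RNA per cell cannot be told apart. Since mRNA with poly(A) tails was sequenced, a change in tail length cannot be told apart from a change in amount.

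EIF4ENIF1 was at 11.6, 15.1 and 11.6 FPKM in KD morulae and at 10.2, 10.9 and 10.3 FPKM in NC morulae. The 8/16-cell libraries held 19.7 and 30.5 FPKM with KD and 28.7 and 26.0 FPKM with NC, so the stages did not overlap. The difference between stages was -0.90 (SE 0.21) in KD embryos, with a limma adjusted p of 0.0159, and -1.30 (SE 0.21) in NC embryos, with an adjusted p of 0.00185. In NC embryos it passed in every alternative analysis, with adjusted p of at most 0.0259. In KD embryos the call was lost without KD 8/16-cell replicate 2 (adjusted p 0.133), without KD morula replicate 1 (adjusted p 0.056), with each library scaled to an equal sum, and when only KD libraries entered the fit.

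**Figure D2:**
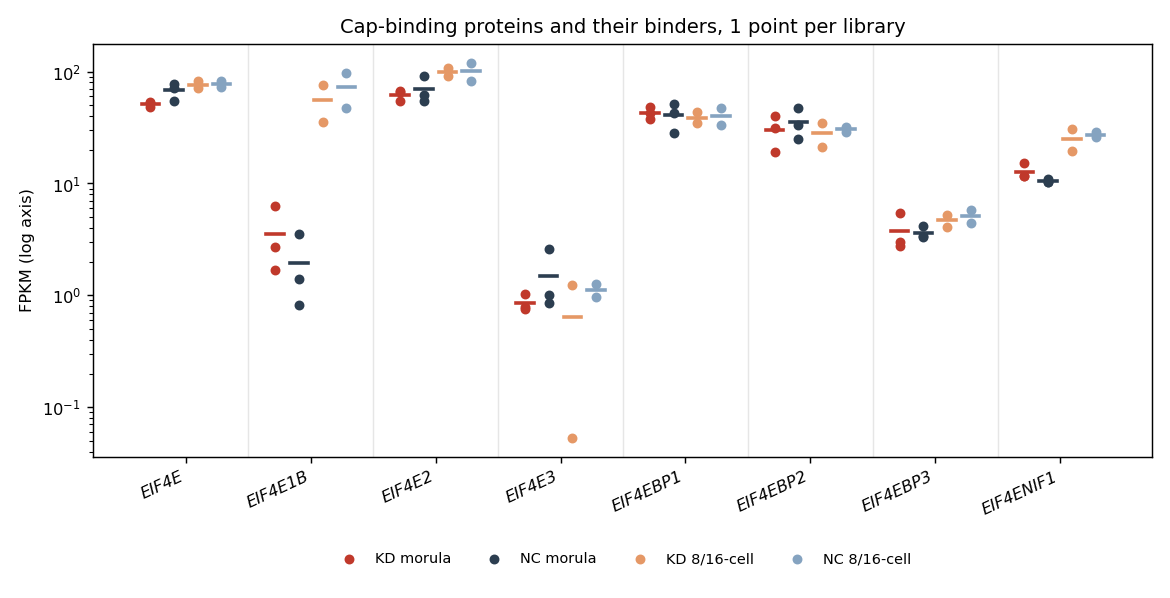
FPKM of the cap-binding genes and the eIF4E binders on a log axis, 1 point per library and 1 bar per group mean, for KD morulae, NC morulae, KD 8/16-cell and NC 8/16-cell embryos. EIF4E1B lies at 0.827 to 6.25 FPKM in morulae and at 35.7 to 97.6 FPKM in 8/16-cell embryos, while EIF4E stays between 48.7 and 83.0 FPKM.

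The other cap-binding genes moved far less. EIF4E, the general cap-binding protein, was at 53.7, 48.7 and 52.6 FPKM in KD morulae and at 71.8, 54.9 and 76.9 FPKM in NC morulae. The 8/16-cell embryos held 71.0 and 81.9 FPKM with KD and 83.0 and 72.8 FPKM with NC. KD morulae lay below all other groups, and the NC groups overlapped. The stage difference was -0.55 in KD embryos (limma adjusted p 0.0549) and -0.21 in NC embryos (adjusted p 0.411), and neither passed. In 4 of 17 alternative analyses the KD difference passed, with adjusted p down to 0.0235.

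Within each library, EIF4E1B stood at 0.0505, 0.128 and 0.0319 of EIF4E in KD morulae and at 0.0195, 0.0649 and 0.0108 of it in NC morulae. The ratio was 0.503 and 0.923 in KD 8/16-cell embryos and 1.18 and 0.655 in NC 8/16-cell embryos. The oocyte form was thus at 0.503 to 1.18 of EIF4E at the 8/16-cell stage and at most 0.128 of it at the morula.

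EIF4E2, which binds the cap but blocks initiation, was at 65.6, 66.6 and 54.3 FPKM in KD morulae and at 91.6, 61.8 and 54.5 FPKM in NC morulae. It was at 108 and 91.3 FPKM in KD 8/16-cell and at 120 and 83.1 FPKM in NC 8/16-cell embryos. The stage difference of -0.67 in KD and -0.56 in NC embryos did not pass, with limma adjusted p of 0.0757 and 0.106. It passed in 3 of 17 alternative analyses in KD embryos and in 1 of 17 in NC embryos. EIF4E3, an eIF4E relative that binds the cap in an unusual way, was at most 2.58 FPKM in any library. The inhibitors of eIF4E that mTOR releases when it phosphorylates them did not pass in any comparison. EIF4EBP1 averaged 42.8 ± 5.34 FPKM in KD morulae and 40.7 ± 11.8 FPKM in NC morulae (SD, n = 3 each). EIF4EBP2 averaged 30.1 ± 10.5 FPKM in KD morulae and 35.4 ± 11.4 FPKM in NC morulae. EIF4EBP3 stayed between 2.78 and 5.75 FPKM in all 10 libraries.

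Of the kinases, EIF2AK4 (GCN2, which senses uncharged tRNA) rose at the morula of NC embryos. It was at 6.35, 5.10 and 4.04 FPKM in KD morulae and at 12.2, 11.9 and 6.87 FPKM in NC morulae. In 8/16-cell embryos it was at 4.16 and 3.54 FPKM with KD and at 3.57 and 3.34 FPKM with NC. All 3 NC morulae were above all other libraries, and KD morula replicate 3 lay within the range of 8/16-cell embryos. The stage difference was 1.31 (SE 0.26, limma adjusted p 0.00494) in NC embryos and passed in every alternative analysis, with adjusted p of at most 0.0436. In KD embryos it was 0.33 (SE 0.26, adjusted p 0.39) and did not pass.

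The difference between KD and NC morulae in EIF2AK4 was -0.85 (SE 0.23, 95% interval -1.37 to -0.34), lower in all 3 same-numbered pairs, as were 32% of all genes tested. The KD to NC ratio was 0.522, 0.430 and 0.588 in replicate pairs 1, 2 and 3. It did not pass in the fit across all libraries (limma adjusted p 0.0872), while it passed with the replicate number as a block (adjusted p 0.0172). Over the 17 alternative analyses its adjusted p ran from 0.0172 to 0.314. The interaction, the difference between the effect of knockdown at the morula and that at the 8/16-cell stage, was -0.97 and did not pass (limma adjusted p 0.496). The NC stage comparison and the morula comparison share the NC morula libraries, so these values are not independent of each other.

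EIF2AK1 (HRI, activated when haem is scarce) was at 21.0, 28.1 and 23.6 FPKM in KD morulae and at 19.6, 16.1 and 17.7 FPKM in NC morulae, without overlap. It was at 19.4 and 26.9 FPKM in KD 8/16-cell and at 28.5 and 23.1 FPKM in NC 8/16-cell embryos. The difference between KD and NC morulae was 0.42 (SE 0.18, limma adjusted p 0.218), which did not pass. EIF2AK3 (PERK, the kinase of the endoplasmic reticulum stress response) was at 1.91, 2.14 and 1.78 FPKM in KD morulae and at 2.57, 2.69 and 3.42 FPKM in NC morulae. Its difference of -0.40 did not pass either (limma adjusted p 0.277). EIF2AK2 (PKR, the kinase activated by double-stranded RNA) was between 0.0164 and 1.37 FPKM in all libraries and was not tested.

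**Figure D3:**
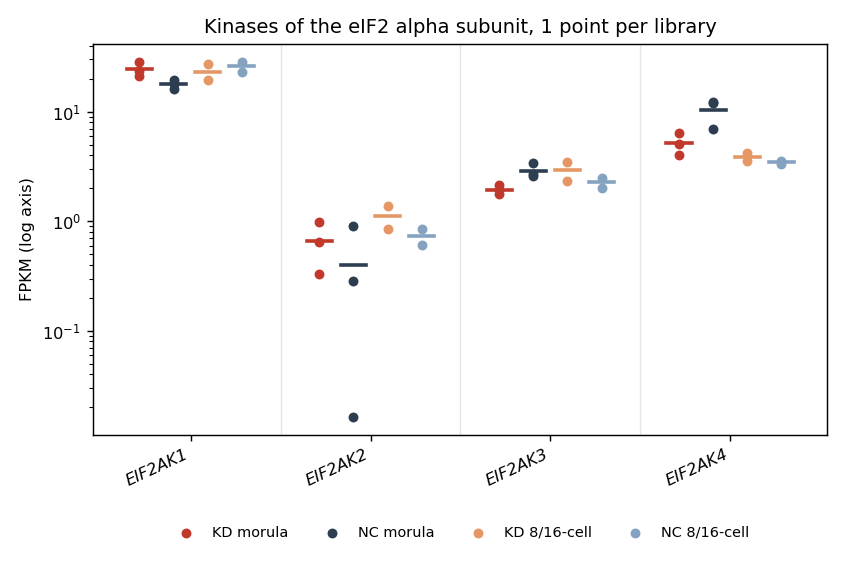
FPKM of the 4 eIF2 kinases on a log axis, 1 point per library and 1 bar per group mean, for KD morulae, NC morulae, KD 8/16-cell and NC 8/16-cell embryos. EIF2AK4 is highest in NC morulae, at 6.87 to 12.2 FPKM, while EIF2AK1 lies between 16.1 and 28.5 FPKM throughout.

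The ratio of EIF2AK4 to EIF2AK1 within libraries restates the values above and was chosen after they were seen. EIF2AK4 stood at 0.302, 0.182 and 0.171 of EIF2AK1 in KD morulae, at 0.621, 0.739 and 0.388 of it in NC morulae, at 0.215 and 0.132 in KD 8/16-cell and at 0.125 and 0.144 in NC 8/16-cell embryos. NC morulae did not overlap any other group in this ratio.

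Differences between the subunits of the substrate of the kinases, eIF2, or of its exchange factor were not tested. EIF2S2, the beta subunit of eIF2, was at 120, 122 and 123 FPKM in KD morulae and at 158, 160 and 176 FPKM in NC morulae. The groups did not overlap, and the difference of -0.43 (SE 0.14) had a limma adjusted p of 0.122 and did not pass. The KD to NC ratio was 0.758, 0.763 and 0.702 in the 3 pairs, and the value with the replicate block was adjusted p 0.0517. The alpha and gamma subunits EIF2S1 and EIF2S3 lay between 51.8 and 88.2 FPKM in every library. Their KD to NC ratios in the 3 pairs were 0.92, 0.98 and 0.88 for EIF2S1 and 0.76, 0.92 and 0.91 for EIF2S3. Each eIF2 subunit gene was thus lower in KD in all 3 pairs, as were 32% of all genes tested.

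EIF2B5, the catalytic subunit of eIF2B, was at 44.9, 49.4 and 54.9 FPKM in KD morulae and at 40.4, 36.4 and 43.3 FPKM in NC morulae. In 8/16-cell embryos it held 73.2 and 69.4 FPKM with KD and 78.4 and 62.9 FPKM with NC, above every morula library. The stage difference was -0.80 in NC embryos (limma adjusted p 0.00654), and it was lost without NC 8/16-cell replicate 1 (adjusted p 0.0768). In KD embryos it was -0.52 and did not pass (adjusted p 0.055), though it passed with the replicate block (0.0229) and without NC morula replicate 2 (0.0402). EIF2B2, a regulatory subunit of the same complex, was at 64.7, 48.4 and 62.4 FPKM in KD morulae and at 65.3, 39.7 and 79.5 FPKM in NC morulae, against 44.1 and 41.1 FPKM in KD 8/16-cell and 43.6 and 30.3 FPKM in NC 8/16-cell embryos. The stage difference of EIF2B2 was 0.44 in KD (limma adjusted p 0.284) and 0.69 in NC embryos (adjusted p 0.0844), and neither passed. In NC embryos it passed with equal sums (adjusted p 0.0325), quantile normalization (0.0335), the replicate block (0.0437) and without NC morula replicate 2 (0.0127). Across stages, same-numbered libraries correlated at 0.15 or less. Stage values with the block, here and below, thus do not rest on a clear pairing. The ratio of EIF2B2 to EIF2B5, chosen after its values were seen, was between 0.979 and 1.84 in all 6 morula libraries and between 0.482 and 0.603 in all 4 8/16-cell libraries.

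In the group that acts at scanning and start codon choice, EIF2A, which can bring initiator tRNA to the ribosome without eIF2, fell at the morula in both treatments. It was at 24.5, 27.3 and 26.1 FPKM in KD morulae and at 28.8, 23.4 and 27.2 FPKM in NC morulae, against 48.1 and 46.5 FPKM in KD 8/16-cell and 41.9 and 37.3 FPKM in NC 8/16-cell embryos. The stages did not overlap. The difference was -0.84 in KD embryos (SE 0.16, limma adjusted p 0.0069) and passed in every alternative analysis, up to an adjusted p of 0.0477. In NC embryos it was -0.57 (SE 0.16, adjusted p 0.0216) and was lost without NC 8/16-cell replicate 1 (adjusted p 0.144), without NC 8/16-cell replicate 2 (adjusted p 0.0659) and when only NC libraries entered the fit.

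EIF5B, the factor that joins the ribosomal subunits, was at 53.2, 65.6 and 47.6 FPKM in KD morulae and at 66.5, 121 and 58.4 FPKM in NC morulae. The 8/16-cell embryos held 146 and 148 FPKM with KD and 135 and 132 FPKM with NC. NC morula replicate 2 lay close to the 8/16-cell libraries and the other morulae far below. In KD embryos the difference was -1.40 (SE 0.28, limma adjusted p 0.00816), lost without KD 8/16-cell replicate 1 (adjusted p 0.0536) or replicate 2 (adjusted p 0.06). In NC embryos it was -0.78 (adjusted p 0.0545) and passed without NC morula replicate 2 (adjusted p 0.00408) and with the replicate block (adjusted p 0.0424).

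EIF1B and EIF1AD, a relative of eIF1A, fell at the morula of NC embryos by 0.61 and 0.85 on the log2 scale, with limma adjusted p of 0.0415 and 0.045. The call for EIF1B was lost in 7 of the 10 fits that left out a library, and that for EIF1AD in 9 of 10. Their adjusted p rose to 0.16 and 0.23 without NC 8/16-cell replicate 1.

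Of the eIF3 subunits, EIF3I fell in both treatments. It was at 118, 110 and 130 FPKM in KD morulae and at 139, 93.6 and 109 FPKM in NC morulae, against 206 and 182 FPKM in KD 8/16-cell and 214 and 167 FPKM in NC 8/16-cell embryos. The difference was -0.70 in KD embryos (limma adjusted p 0.0386) and -0.75 in NC embryos (adjusted p 0.0208). The KD call was lost without any 1 of the 5 KD libraries, with no filter on low values and with equal sums. The NC call was lost without NC 8/16-cell replicate 1 (difference -0.568) and with the NC libraries alone. EIF3J, a loosely bound subunit, and EIF3M fell in KD embryos by 0.59 and 0.73 on the log2 scale (limma adjusted p 0.0405 and 0.0436). These calls were lost in 6 and 8 of the 10 fits that left out a library, among them the fit without KD 8/16-cell replicate 1. Both were also lost with no filter on low values, equal sums and quantile normalization, and that for EIF3J with the KD libraries alone. EIF3CL rose in NC embryos, at 143, 131 and 133 FPKM in morulae against 98.6 and 96.5 FPKM in 8/16-cell embryos, by 0.48 (limma adjusted p 0.0366). That call was lost in 4 of 10 fits that left out a library, among them the fit without NC 8/16-cell replicate 2 (difference 0.461). It was also lost with equal sums and with the NC libraries alone.

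EIF4H and EIF4B, both cofactors of the eIF4A helicase, differed in how they varied. EIF4H was at 327, 261 and 177 FPKM in KD morulae and at 442, 284 and 181 FPKM in NC morulae, against 113 and 144 FPKM in KD 8/16-cell and 172 and 133 FPKM in NC 8/16-cell embryos. EIF4B lay between 197 and 241 FPKM in all libraries. The stage difference of EIF4H, 0.95 in KD and 0.90 in NC embryos, did not pass (limma adjusted p 0.0847 and 0.0798). With the replicate block it passed in KD (adjusted p 0.00404) and NC embryos (0.00271), and in NC embryos also without NC morula replicate 3 (0.0257). The ratio of EIF4H to EIF4B was 0.784 to 1.83 in the 6 morula libraries and 0.574 to 0.763 in the 4 8/16-cell libraries.

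EIF6, which keeps the large ribosomal subunit apart from the small one and serves its biogenesis, was at 120, 124 and 173 FPKM in KD morulae and at 101, 75.4 and 171 FPKM in NC morulae. The 8/16-cell embryos held 270 and 234 FPKM with KD and 258 and 196 FPKM with NC. In KD embryos the difference was -0.87 (limma adjusted p 0.0733), which did not pass. It passed with the replicate block (0.00294), without NC morula replicate 2 (0.0427) or 3 (0.0311) and with the KD libraries alone (0.0475). In NC embryos it was -1.03 (adjusted p 0.0301), lost with no filter on low values, with the NC libraries alone, without NC 8/16-cell replicate 1 (adjusted p 0.198) or 2 (0.0744) and without NC morula replicate 1 (0.0848) or 2 (0.0689).

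Counted over the family, 10 of 51 EIF genes passed in NC embryos between stages (2 rose and 8 fell), against 30.8% of all genes tested (12.6% higher and 18.2% lower). In KD embryos 7 of 51 passed, all of them lower, against 20% of all genes (5.22% higher and 14.8% lower). The shares of EIF genes lay below those of all genes, and this difference was not tested. The median of the EIF genes was -0.22 in KD and -0.10 in NC embryos, and that of all genes -0.18 in KD and -0.07 in NC embryos. With libraries scaled to equal sums, the median in KD embryos was -0.03 over all genes and -0.04 over the EIF genes, and 3 EIF genes passed. In KD embryos 3 EIF genes passed without KD 8/16-cell replicate 1, 2 without KD 8/16-cell replicate 2, 3 without KD morula replicate 1, 4 without KD morula replicate 3 and 10 without NC morula replicate 2. In NC embryos 3 passed without NC 8/16-cell replicate 1 and 5 without NC 8/16-cell replicate 2, and the highest such count was 12, without NC morula replicate 2. EIF2A, EIF3I, EIF4E1B and EIF4ENIF1 passed in both treatments, which is 57.1% of the 7 in KD and 40% of the 10 in NC embryos. Comparisons between stages also carry any difference in how the columns of the stages were made: for 75 of the 81 symbols on several lines the morula columns hold more sets of values than the 8/16-cell columns.

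**Figure D4:**
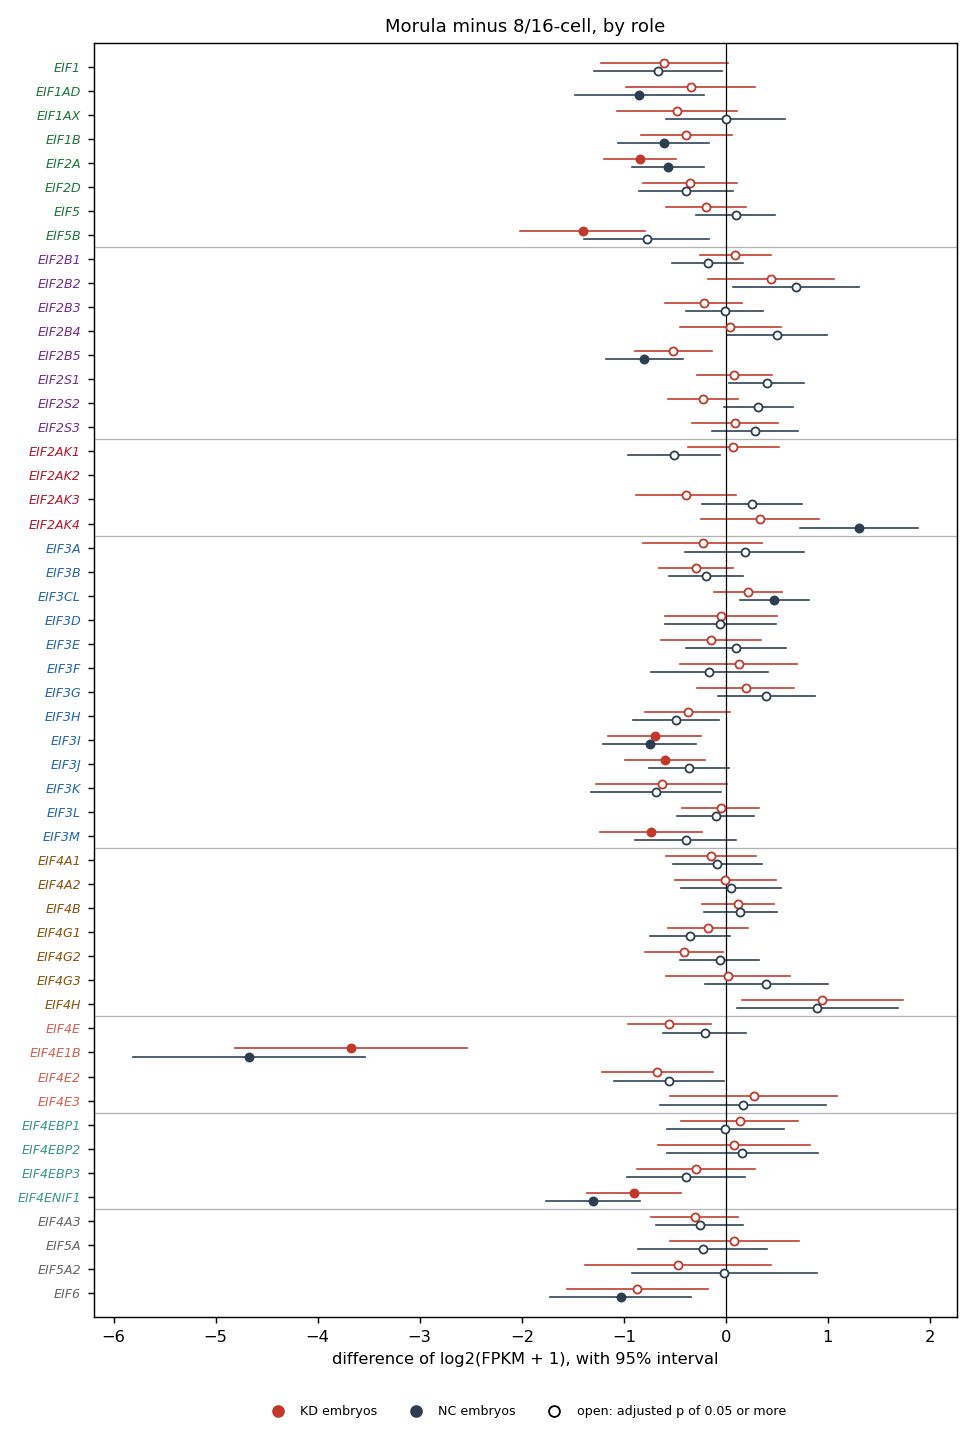
Morula minus 8/16-cell difference of log2(FPKM + 1) for each tested EIF gene, ordered by role, in KD and in NC embryos, with 95% intervals and filled points for limma adjusted p under 0.05. EIF4E1B stands far to the left at -3.67 in KD and -4.67 in NC embryos, and EIF2AK4 in NC embryos lies farthest to the right at 1.31.

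Knockdown itself left no EIF gene past the threshold in the fit without the replicate block. In the morula comparison 0 of 51 passed with limma and 5 had an unadjusted p under 0.05, where 0.697% of all genes passed and 21.2% had an unadjusted p under 0.05. The 5 were EIF2AK4, EIF2S2, EIF2AK1, EIF4G2 and EIF4E. EIF4G2 was at 191, 185 and 176 FPKM in KD morulae and at 242, 232 and 236 FPKM in NC morulae, a difference of -0.36 (SE 0.16, adjusted p 0.222), and EIF4E differed by -0.37 (SE 0.16, adjusted p 0.223). Values did not overlap for 12 EIF genes, 3 higher and 9 lower in KD, against 8.44% higher and 15.3% lower of all genes. EIF4E1B averaged 3.54 ± 2.40 FPKM in KD morulae and 1.93 ± 1.44 FPKM in NC morulae (SD, n = 3 each), 0.62 higher on the log2 scale with a 95% interval of -0.40 to 1.63 (adjusted p 0.462). Within pairs its KD to NC ratio was 1.94, 1.75 and 2.03, so KD was the higher of each pair, as for 19.9% of all genes tested. With the replicate block 1 EIF gene passed, EIF2AK4, against 11.9% of all genes.

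The ribosomal RNA gene RN18S1 was at 9053, 8553 and 11581 FPKM in KD morulae and at 2704, 2983 and 8611 FPKM in NC morulae. KD values were mostly above those of NC morulae, with NC replicate 3 within their range, and the part of RN18S1 in these results was not tested. The oocyte list, given above, was the higher in KD for each same-numbered pair, as EIF4E1B was, and its part was not tested either. Summed FPKM over the cumulus and granulosa list was 68.2, 73.5 and 144 in KD morulae and 88.4, 77.3 and 80.8 in NC morulae. It was 173 and 181 in KD 8/16-cell embryos and 102 and 107 in NC 8/16-cell embryos, without overlap. Between stages, 12 of its 14 tested genes had a negative difference in each treatment. The part of this list in the EIF results was not tested. NC morula replicate 2 was the lowest of the 6 morula libraries for 19 of the 52 EIF genes, a larger share than its 19.3% of all genes tested. It was the highest for 6 of the 52, a smaller share than its 17.8% of all genes tested. These differences in share were not tested.

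At the 8/16-cell stage 0 of 51 EIF genes passed with limma and 0 had an unadjusted p under 0.05, where 0.017% of all genes passed and 4.37% had an unadjusted p under 0.05. The smallest p belonged to EIF2A, 0.25 higher in KD (47.3 ± 1.12 FPKM in KD and 39.6 ± 3.20 FPKM in NC, SD, n = 2 each), EIF2B1, 0.24 lower on the log2 scale in KD, and EIF4E3, none of which passed (limma adjusted p 1). The 95% intervals were -0.13 to 0.64 for EIF2A and -0.62 to 0.15 for EIF2B1. The target H1FOO did not pass at this stage either. The oocyte list, which includes H1FOO, had 0 of 17 tested genes passing, with limma adjusted p of at least 0.104. Between KD and NC morulae 0 genes of that list passed as well. The lack of calls between treatments thus does not show a lack of change. The interaction gave 0 of 51 with limma and 2 at an unadjusted p under 0.05, EIF2AK4 and EIF2S2 (-0.54, adjusted p 0.505), where 0.017% of all genes passed and 9.39% had an unadjusted p under 0.05.

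**Figure D5:**
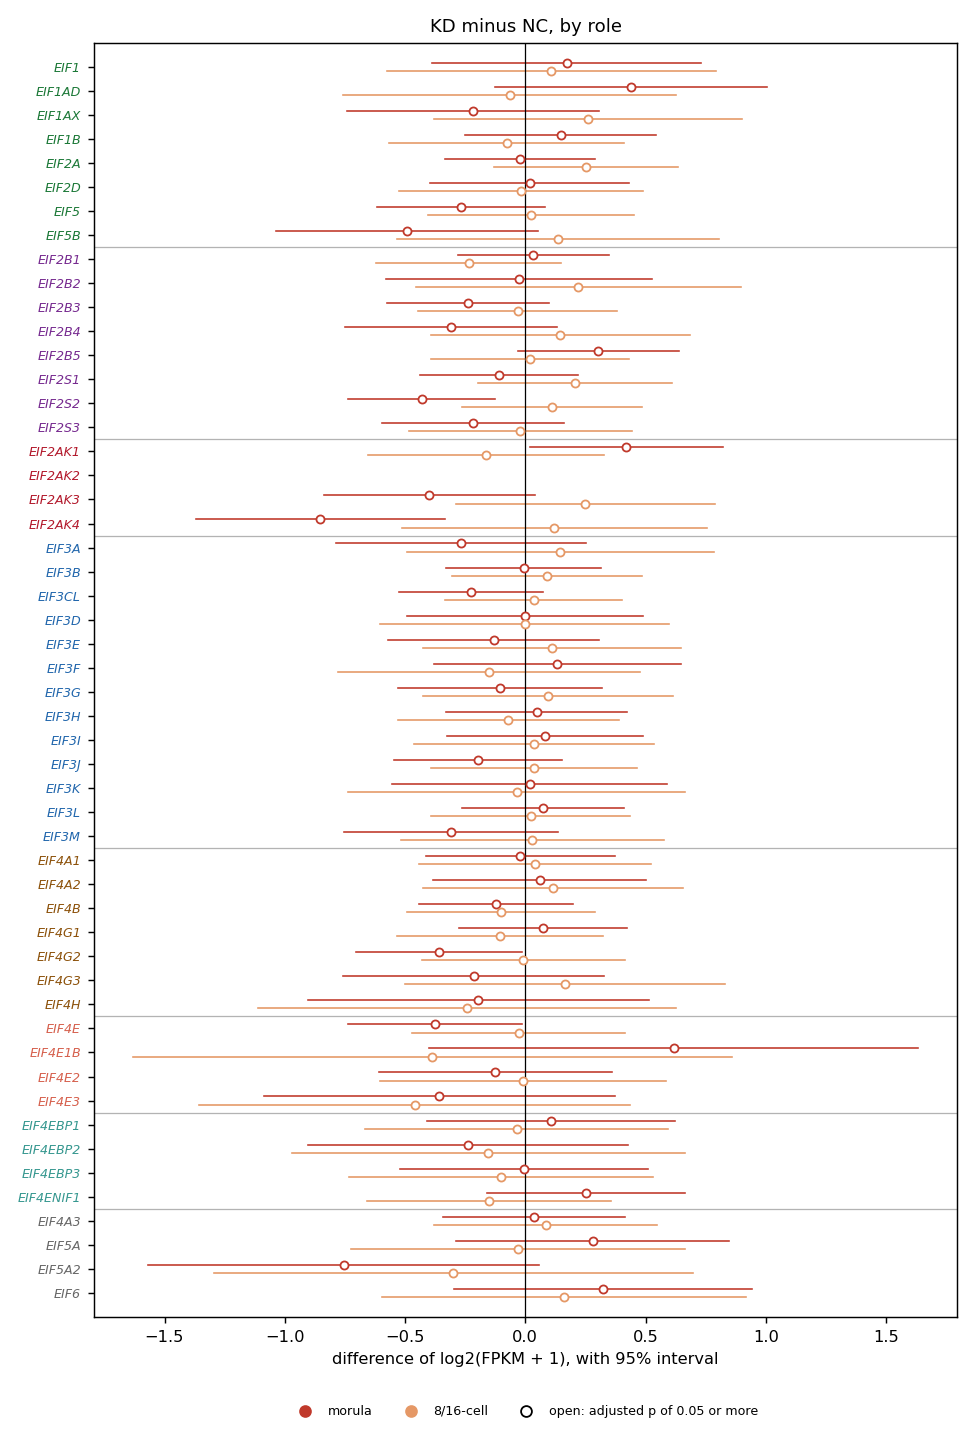
KD minus NC difference of log2(FPKM + 1) for each tested EIF gene, ordered by role, at the morula and at the 8/16-cell stage, with 95% intervals. All points are open, since no EIF gene had a limma adjusted p under 0.05 in the fit without the replicate block. EIF2AK4 at the morula lies farthest to the left at -0.85.

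Genes around initiation were read from lists of known members. Between stages, 14.8% of all genes tested fell and 5.22% rose in KD embryos, and 18.2% fell and 12.6% rose in NC embryos, and each list's counts stand against these shares without a test. In the list of the integrated stress response and the eIF2 phosphatase, 3 of 15 tested genes fell and 0 rose between stages in KD embryos, and 4 fell and 1 rose in NC embryos. CHAC1 fell by 1.43 in KD and by 1.34 in NC embryos on the log2 scale (limma adjusted p 0.00287 and 0.0019), and DDIT3, a transcription factor of the stress response, fell by 1.90 in KD (adjusted p 0.0119) and 2.33 in NC embryos (adjusted p 0.00272). The call for DDIT3 in KD embryos was lost without KD 8/16-cell replicate 2 (adjusted p 0.107). In NC embryos PPP1R15A, a targeting subunit of the eIF2 phosphatase, fell by 0.91 (adjusted p 0.00679), a call lost without NC 8/16-cell replicate 1 (adjusted p 0.0807).

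Between treatments at the morula, DNAJC3, an inhibitor of eIF2 kinases, was the only gene of the 6 pathway lists that passed without the replicate block. It was at 22.3, 22.0 and 23.5 FPKM in KD morulae and at 38.2, 37.2 and 39.4 FPKM in NC morulae, without overlap, a fall of 0.74 on the log2 scale (SE 0.13, limma adjusted p 0.0383). The call was lost in 9 of 10 fits that left out a library, up to adjusted p 0.174 without NC morula replicate 1, and also with no filter, equal sums, quantile normalization or the morula libraries alone. With the replicate block, 13 of the 107 tested genes of these lists passed (6 higher and 7 lower in KD), or 12.1%, against 11.9% of all genes. Among them were ATF4 (adjusted p 0.0269), a transcription factor translated when eIF2 is phosphorylated, and PPP1R15A (adjusted p 0.0236), both higher in KD and both named after their values were seen. They were the 2 genes of the stress response list that passed as higher with the block, while 3 of that list passed as lower. The median difference of that list without the block was -0.06. At the 8/16-cell stage no gene of the 6 pathway lists passed.

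In the list of mTOR and MNK signalling, DDIT4, an inhibitor of mTOR, was the only one of 17 tested genes to pass in NC embryos, and it rose by 1.45 (limma adjusted p 0.00184). PDCD4, an inhibitor of eIF4A, fell by 0.86 in KD embryos (adjusted p 0.0401), a call lost in 7 of 10 fits that left out a library, up to adjusted p 0.212 without KD 8/16-cell replicate 2. In the list of the poly(A) tail and cytoplasmic polyadenylation, 10 of 25 tested genes fell in KD embryos and 8 in NC embryos, and 0 rose. BTG4, an adaptor of the deadenylase, fell by 3.47 in KD and by 4.71 in NC embryos, and CPEB1, which binds the polyadenylation element, by 1.80 in KD and by 2.85 in NC embryos (limma adjusted p 0.00309 and 0.000226).

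In the list of maternal mRNA repression, 6 of 22 tested genes fell in KD embryos and 9 in NC embryos, and 0 rose. YBX2, a protein that masks stored mRNA in germ cells, was at 28.2, 38.9 and 34.1 FPKM in KD morulae and at 21.0, 22.3 and 21.9 FPKM in NC morulae, against 105 and 118 FPKM in KD 8/16-cell and 134 and 110 FPKM in NC 8/16-cell embryos. It fell by 1.71 in KD and by 2.43 in NC embryos (limma adjusted p 0.000643 and 5.6e-05). ZAR1L fell by 2.57 in KD and by 3.46 in NC embryos. In the list of helicases and recycling, 5 of 14 fell in KD and 3 in NC embryos, among them MCTS1, a factor of re-initiation, whose call was lost in 3 KD and 4 NC fits that left out a library (adjusted p up to 0.103 in KD and 0.116 in NC embryos). In the list of elongation and termination, 1 of 14 fell in KD embryos, and 2 rose and 1 fell in NC embryos. The last was DOHH, which completes the hypusine of eIF5A, down by 0.64 (limma adjusted p 0.0211) and lost without NC 8/16-cell replicate 1 (adjusted p 0.122) or 2 (0.0831), without NC morula replicate 1 (0.06) and with the NC libraries alone (0.0601). EIF5A itself did not pass in either treatment.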

How the data were processed

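The deposited table, made by the authors, holds FPKM for 39911 lines and 10 libraries; the submitters' processing notes name Cufflinks, featureCounts, HISAT2 and Trimmomatic, whose versions and roles are not given in the sources used here. All data columns were matched to samples by name. After 81 symbols on more than 1 line were left out, 28700 genes remained, and all 52 EIF symbols matched a RefSeq symbol (names only).

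Values were transformed to log2(FPKM + 1) with a pseudocount of 1, which understates changes of low genes. Genes averaging 1 FPKM or more over all libraries, 11761 in number, were tested with limma-trend (limma 3.58.1, R 4.3.3), fitting 4 group means to all 10 libraries (6 residual degrees of freedom, 4.63 prior). Two-sided p-values were adjusted by Benjamini-Hochberg over all genes tested, threshold 0.05. The code was tested on simulated data. Same-numbered KD and NC morula libraries deviated together (correlations 0.37, 0.325 and 0.312, other pairs -0.25 to -0.0728), so the replicate block is taken to pair them there.

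The genes described were the cap-binding genes and their binders, the kinases, every EIF gene that passed, at least 3 per comparison by smallest p, the 5 highest, paralogous pairs, and up to 3 passing genes of each pathway list. EIF2B2, EIF4B, EIF4H and the ratios within libraries were added after their values were seen. The members and lists were chosen with earlier results of these data known. Alternatives were another pseudocount, filter or scaling, the block, a fit of fewer groups, and leaving out each library.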

Additional observations from a re-analysis of the deposited data

How the results depend on the processing

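With the replicate block, 1 EIF gene passed between KD and NC morulae against 0 without it, while 16 passed between stages in NC embryos against 10 and 14 in KD embryos against 7. Over all genes the block passed 39% between stages in NC embryos against 30.8% without it, and 30% in KD embryos against 20%. Across stages, same-numbered libraries had correlations of 0.104 and 0.15 in KD and of 0.0983 and 0.0361 in NC embryos. At the 8/16-cell stage the correlation was 0.0558. With the threshold for pairing set at 0.1, only the KD libraries passed it across stages, by little, and the 8/16-cell libraries did not pass. In NC embryos 4 EIF genes passed between stages when only NC libraries were fitted, and leaving out 1 library gave 3 (without NC 8/16-cell replicate 1) to 12 (without NC morula replicate 2). In KD embryos 4 passed with no filter on low values and 3 with equal sums, and leaving out 1 library gave 2 (without KD 8/16-cell replicate 2) to 10 (without NC morula replicate 2). Quantile normalization gave 4 higher and 9 lower in NC embryos against 2 and 8, and 1 higher and 5 lower in KD embryos against 0 and 7. Leaving out 1 library left 0 EIF genes in both treatment comparisons and in the interaction. Of 1368 alternative values for single genes, 1171 kept their direction and side of the threshold, 166 no longer passed, 26 newly passed and 5 changed sign, none of which passed. Those were EIF4H between treatments at the morula (0.0441 without KD morula replicate 3 and 0.124 without NC morula replicate 1, against -0.20, with a range of -0.517 to 0.124), EIF4E3 at the 8/16-cell stage (0.0822 without KD 8/16-cell replicate 1 and -1 without replicate 2), and EIF2AK1 between KD stages (-0.154 without KD 8/16-cell replicate 1 and -0.0342 without KD morula replicate 2, against 0.07, with a range of -0.154 to 0.3). The causes were not tested. Depth is unknown, so counting error could not be given.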
